A study of Homo sapiens with 5 samples.

Results

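The suppressor of cytokine signalling genes SOCS1 to SOCS7 and CISH, the founding relative of the family, were followed in RNA sequencing of HaCaT cells. The members were taken by gene symbol, and all 8 were among the 27933 symbols of the table. All 8 also averaged at least 1 FPKM (sequenced fragments relative to transcript length and library size) over the 5 libraries, the level that 12196 genes met and that a gene needed to be tested. HaCaT is an established line of human keratinocytes that divides without limit and can still differentiate. The 2 control libraries (labelled NC, genotype control) and the 3 libraries labelled AHNAK knockdown came from the same line grown in serum-containing medium. The labels name no added cytokine or time point. Of the knockdown reagent they give only the prefix si in the knockdown column names, and the design text calls the knockdown a knockout. Nothing in the labels says that replicates were separate cultures, so every p-value measures the variation among these samples alone, and that variation may be technical.

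Cytokines such as interleukin 6, oncostatin M and the interferons activate Janus kinases (JAKs) on their receptors, and the JAKs activate STAT transcription factors. STATs in turn switch on CISH and some of the SOCS genes. The proteins of the family hold a central SH2 domain that binds phosphorylated tyrosines. Their C-terminal SOCS box recruits a ubiquitin ligase through elongins B and C. SOCS1 and SOCS3 also carry a short region that inhibits JAKs directly, and in keratinocytes they limit the responses to interferon gamma and to cytokines that signal through the receptor chain IL6ST (gp130). SOCS2 and CISH are best known as STAT5 targets, and SOCS4 to SOCS7 act largely on receptor tyrosine kinases and insulin signalling.

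The stretches before the starts of SOCS1 and CISH are shown because SOCS1 separated the groups, CISH varied most within the knockdown group, and their promoter windows were the only ones among the members with RefSeq entries to hold either motif searched. Each is printed 5′ to 3′ on the gene's strand (RefSeq, GRCh38.p14), limited to bases upstream of both the RefSeq and the GENCODE start. Capitals mark TTCNNNGAA, the spaced palindrome that STAT dimers recognise, in CISH and a repeat of GAAA around a gap of any 2 bases, of the kind that interferon regulatory factors recognise, in SOCS1.
CISH (chr3:50611832-50612024, minus strand): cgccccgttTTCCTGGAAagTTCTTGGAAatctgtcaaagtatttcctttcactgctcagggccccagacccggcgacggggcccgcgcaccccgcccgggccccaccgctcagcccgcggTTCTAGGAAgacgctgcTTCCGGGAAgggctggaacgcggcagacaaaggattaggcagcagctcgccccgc
SOCS1 (chr16:11256205-11256454, minus strand): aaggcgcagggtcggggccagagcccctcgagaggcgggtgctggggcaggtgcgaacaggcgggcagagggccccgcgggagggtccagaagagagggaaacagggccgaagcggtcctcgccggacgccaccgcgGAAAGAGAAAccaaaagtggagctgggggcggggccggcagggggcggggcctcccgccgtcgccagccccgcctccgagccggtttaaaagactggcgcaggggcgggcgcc
The CISH window held TTCNNNGAA 4 times, beginning at -241, -230, -129 and -112 from the RefSeq start. Of 35116 promoter windows of 300 bases, 7.66% held this motif at least once and 7 windows (0.02%) held it 4 times or more. The SOCS1 window held the GAAA repeat once, at -113, as did 3.57% of all windows on either strand, and it held no TTCNNNGAA. Neither motif occurred in the windows of SOCS3 (2 entries), SOCS4 and SOCS6. The SOCS3 windows, 78360876 to 78361175 and 78359618 to 78359917, lay on either side of its GENCODE start at 78360077. The bases directly before that start were thus not searched. SOCS2, SOCS5 and SOCS7 had no entry. These are matches of letters, and no binding was measured.

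AHNAK, the targeted gene, stood at 204.8 and 242.0 FPKM in the controls. In knockdown it was at 113.9, 69.6 and 115.3 FPKM, lower in each library. Its log2 difference, knockdown minus control, was -1.19 (limma, adjusted p = 0.372). All 8 keratinocyte markers (KRT5, KRT14, TP63, KRT17, ITGB4, DSP, PKP1 and SFN) were above 1 FPKM in every library, with sums of 6043 and 7541 FPKM in controls and 4063 to 5719 FPKM in knockdown, and all 8 had a negative log2 difference. Summed fibroblast markers (6 genes) lay at 3.30 and 5.00 FPKM in controls and 6.11 to 10.2 FPKM in knockdown, with DCN at 0 in control replicate 2. DCN, COL3A1 and LUM were higher in each knockdown library, while COL1A1 was lower in each, at 1.94 and 2.47 FPKM in controls and 1.78, 1.28 and 1.59 FPKM in knockdown. Leukocyte markers (5 genes) summed to 15.6 and 17.6 FPKM against 20.4 to 27.8 FPKM, nearly all of it CD68, while PTPRC was listed at 0 in 4 libraries and at 0.0123 FPKM in the fifth. Melanocyte and endothelial sums overlapped between the groups. The libraries also fell into sets by the value steps of low genes. Set A held control replicate 1 and knockdown replicates 1 and 3, and set B held control replicate 2 and knockdown replicate 2. The AHNAK log2 difference was -0.83 within set A and -1.79 within set B. Across genes, deviations from the 5-library mean were positively related to GC content in knockdown replicate 1 (Spearman's rho 0.605) and negatively in knockdown replicate 3 (-0.549), over 11768 genes that are not independent replicates. The part of these features in the differences below was not tested, apart from the within-set and GC-corrected values given. FPKM carries no read totals, so depth is unknown. In bulk RNA, fewer cells of a type and less RNA per cell cannot be told apart.

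SOCS1 and SOCS2 were lower and SOCS6 was higher in each knockdown library than in either control, and none of the 8 genes passed the test over all genes. The other members overlapped between groups. Groups did not overlap for 3 of 8 members, against 32.0% of tested genes (15.8% lower, 16.2% higher), so this share is close to the background. An unadjusted p under 0.05 was reached by the same 3 members, against 11.7% of tested genes, with 2 members lower (background 5.48%) and 1 higher (background 6.22%). Past the adjusted threshold of 0.05 stood 0 of 8 members and 0.0% of the 12196 genes (limma, smallest adjusted p = 0.0570, with 1427 genes at an unadjusted p under 0.05). Of the members 5 had a negative log2 difference, against 48.7% of all genes. The median over the members was -0.18, against 0.01 over all genes. When every library was rescaled to the same FPKM sum, 7 of 8 members were lower, against 56.88% of all genes. The 1427 genes (668 lower, 759 higher) then became 1332 (820 lower, 512 higher).

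**Figure D1:**
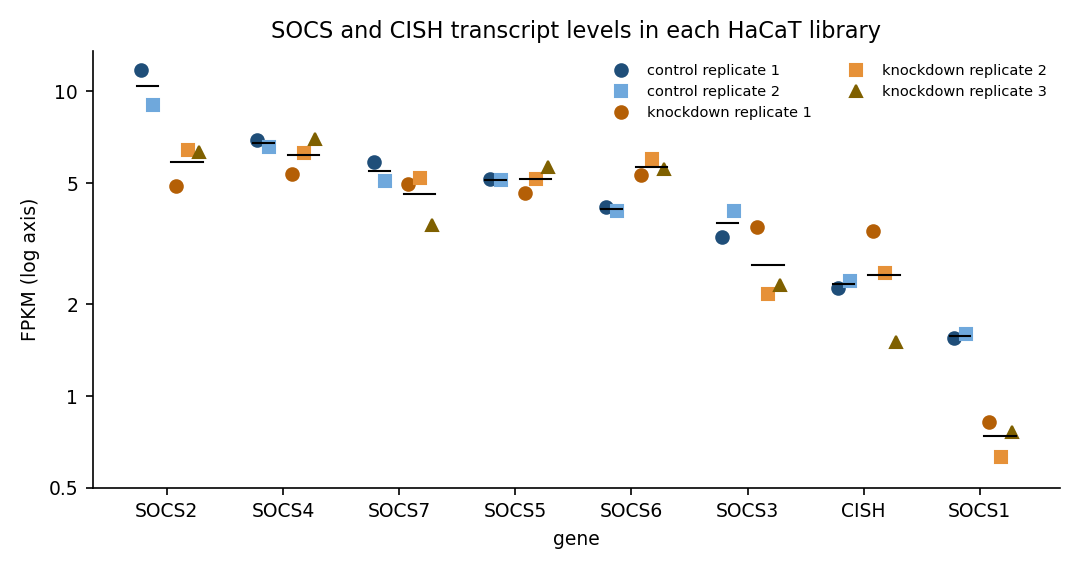
FPKM (log axis) of each gene in the 2 control and 3 knockdown libraries, 1 point per library, genes ordered by control mean, black lines at group means. SOCS2 and SOCS1 sit lower in all knockdown libraries, SOCS6 sits higher, and the knockdown points of CISH spread on both sides of its controls.

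SOCS1 (ENSG00000185338.5, chromosome 16, 11254405 to 11256200, minus strand, GRCh38) encodes the strongest inhibitor of interferon signalling in the family, and in the annotation it has 1 exon. Control replicates 1 and 2 held 1.55 and 1.60 FPKM. Knockdown replicates 1, 2 and 3 held 0.819, 0.633 and 0.763 FPKM. The controls lay close to each other and no knockdown library reached 1 FPKM. Mean levels came to 1.58 ± 0.03 FPKM in controls (SD, n = 2) and 0.738 ± 0.096 FPKM in knockdown (SD, n = 3), so knockdown was 0.469 of control. On the log2(FPKM + 0.5) scale, which understates the change of so low a gene, the difference was -0.75 (SE 0.16, 95% confidence interval -1.13 to -0.36; limma, adjusted p = 0.372). Within set A it was -0.67 and within set B -0.89. Summed keratinocyte markers were lower in each knockdown library too. The median log2 difference of these markers was -0.19 within set A and -0.87 within set B. Their part in the SOCS1 and SOCS2 differences was not tested. SOCS1 is among the GC-richest tested genes, at 69.1% GC (percentile 99.4). The difference corrected for GC and length was -0.67, against -0.75 without correction. SOCS1 lies inside the span of RMI2 on the opposite strand without sharing exon bases. RMI2, which acts in DNA repair, was at 16.3 and 20.1 FPKM in controls and 20.2, 19.8 and 29.9 FPKM in knockdown.

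SOCS3 (ENSG00000184557.4, chromosome 17, 78356778 to 78360077, minus strand) encodes the inhibitor that docks on IL6ST and so restrains oncostatin M and interleukin 6 signalling. Controls were at 3.33 and 4.04 FPKM. Knockdown replicates 1, 2 and 3 were at 3.59, 2.17 and 2.31 FPKM. Knockdown replicates 2 and 3 lay under both controls, while replicate 1 lay between them. This gave a log2 difference of -0.41 (SE 0.22, 95% interval -0.94 to 0.11; limma, adjusted p = 0.501). Set A gave -0.18 and set B -0.77, and without knockdown replicate 1 it was -0.61 (adjusted p = 0.219). Within each library SOCS1 stood at 0.466 and 0.396 of the SOCS3 level in controls and at 0.228, 0.292 and 0.331 in knockdown. That ratio does not depend on an overall scaling of each library. It can depend on GC content, which was 69.1% for SOCS1 and 60.0% for SOCS3. After correction for GC content and length, SOCS1 log2 levels were 1.03 and 0.96 in controls and 0.24, 0.26 and 0.50 in knockdown. Those of SOCS3 were 1.91 and 2.15, and 1.93, 1.43 and 1.63. The gap between the corrected levels overlapped between the groups. The uncorrected ratio was lower in all 3 knockdown libraries, was chosen after the values were seen and was not tested.

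SOCS2 (ENSG00000120833.13, chromosome 12, 93569814 to 93583487, plus strand) encodes the inhibitor that holds back growth hormone signalling. It was the most abundant member in controls, at 11.7 and 9.005 FPKM, and stood at 4.89, 6.399 and 6.32 FPKM in knockdown. The lowest control was thus above the highest knockdown library, and the controls differed by more between themselves than the knockdown libraries did. Mean levels came to 10.4 ± 1.93 FPKM in controls (SD, n = 2) and 5.87 ± 0.85 FPKM in knockdown (SD, n = 3), so knockdown was 0.566 of control. This gave a log2 difference of -0.77 (SE 0.18, 95% interval -1.20 to -0.34; limma, adjusted p = 0.377), while set A gave -1.01 and set B gave -0.46. Without control replicate 1, the highest library, it was -0.59, and without control replicate 2 it was -0.95.

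The antisense gene SOCS2-AS1 (ENSG00000246985.7, chromosome 12, 93542463 to 93571768, minus strand) shares 277 of the 6776 exon bases of SOCS2. It was looked up for this overlap, and its values were known when it was chosen for description. It stood at 4.87 and 3.22 FPKM in controls and at 1.52, 2.52 and 1.75 FPKM in knockdown, again lower in each knockdown library. Its log2 difference was -0.90 (SE 0.24; limma, adjusted p = 0.387), while set A gave -1.33 and set B gave -0.30. Control replicate 1 was the highest library and knockdown replicate 1 the lowest for SOCS2 and SOCS2-AS1 alike. Whether counting used strand is not given in the sources used here, and without strand the reads of overlapping exons cannot be told apart. SOCS2 stood at 2.41 and 2.79 times SOCS2-AS1 in controls and at 3.21, 2.54 and 3.62 times in knockdown. The annotation also holds 2 named SOCS2 pseudogenes, which can share its reads.

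**Figure D2:**
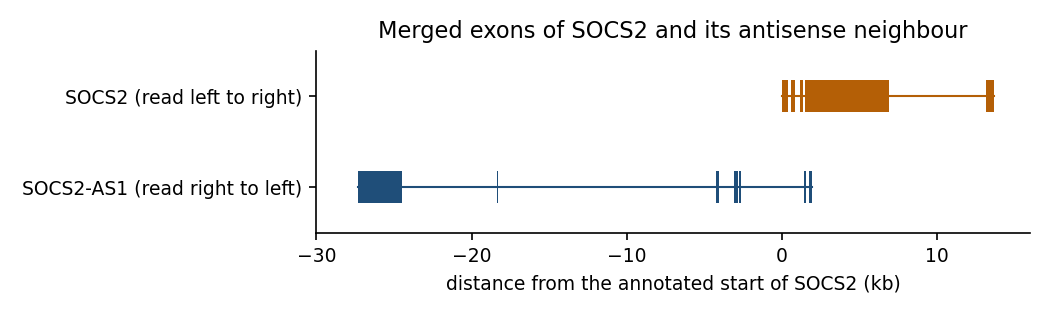
Merged exons of SOCS2 and SOCS2-AS1 (boxes) against the distance in kb from the annotated start of SOCS2. The shared 277 bases lie in the rightmost exons of SOCS2-AS1, which is read right to left, where they meet the longest SOCS2 exon.

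CISH (ENSG00000114737.15, chromosome 3, 50606490 to 50611831, minus strand), a target of STAT5 that blocks STAT docking on receptors, had no shared direction. It was at 2.27 and 2.39 FPKM in controls. Knockdown replicates 1, 2 and 3 were at 3.47, 2.53 and 1.502 FPKM. The controls agreed closely, while knockdown replicate 1 lay above them and replicate 3 below them, a 2.31-fold range that was the widest of the 8 genes in knockdown. This gave a log2 difference of 0.03 (SE 0.28, 95% interval -0.64 to 0.70; limma, adjusted p = 0.977), so a change of up to 0.64 lower or 0.70 higher on the log2 scale is inside the interval. Without knockdown replicate 1 it was -0.20 and without replicate 3 it was 0.30, and rescaling to an equal FPKM sum gave -0.01. CISH shares 218 exon bases with MAPKAPK3, a kinase gene on the opposite strand, which was at 18.1 and 12.9 FPKM in controls and 17.95, 21.8 and 15.2 FPKM in knockdown.

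SOCS6 (ENSG00000170677.5, chromosome 18, 70288901 to 70330200, plus strand), whose protein binds receptor kinases such as KIT, was the member that was higher in knockdown. It stood at 4.17 and 4.05 FPKM in controls and at 5.32, 5.98 and 5.57 FPKM in knockdown. The lowest knockdown library was above the highest control, and the spread inside each group was smaller than the gap. Mean levels came to 4.11 ± 0.08 FPKM in controls (SD, n = 2) and 5.62 ± 0.33 FPKM in knockdown (SD, n = 3), so knockdown was 1.37 times control. This gave a log2 difference of 0.41 (SE 0.13, 95% interval 0.10 to 0.71; limma, adjusted p = 0.389), while set A gave 0.35 and set B gave 0.51. The summed fibroblast and leukocyte markers above were also higher in each knockdown library, though COL1A1 was lower, and their part in the SOCS6 difference was not tested. SOCS2 stood at 2.82 and 2.23 times SOCS6 in the controls and at 0.920, 1.07 and 1.13 times in knockdown. In this ratio, which library scaling leaves untouched, the groups lay far apart, and as a ratio picked after the values were seen it has no test.

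SOCS4 and SOCS5 encode a closely related pair that lowers signalling of the epidermal growth factor receptor, and both had differences near 0. SOCS4 (ENSG00000180008.8, chromosome 14, 55027230 to 55049488, plus strand) was at 6.91 and 6.57 FPKM in controls and at 5.34, 6.29 and 6.96 FPKM in knockdown. SOCS5 (ENSG00000171150.8, chromosome 2, 46698952 to 46780245, plus strand) was at 5.15 and 5.10 FPKM in controls and at 4.62, 5.17 and 5.66 FPKM in knockdown. In both genes knockdown replicate 1 was the lowest library and knockdown replicate 3 the highest. The log2 differences were -0.12 (95% confidence interval -0.48 to 0.24) and 0.00 (-0.33 to 0.33), with limma adjusted p of 0.764 and 0.997. For SOCS4 the value was -0.02 without knockdown replicate 1 and -0.20 without knockdown replicate 3. The sign for SOCS5 turned negative under rescaling to an equal sum (-0.05) and under quantile normalization (-0.0037). SOCS5 has 5 named pseudogenes in the annotation, which can share its reads.

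SOCS7 (ENSG00000274211.4, chromosome 17, 38352228 to 38405593, plus strand), an adaptor linked to insulin signalling and the cytoskeleton, was at 5.86 and 5.08 FPKM in controls. In knockdown it was at 4.97, 5.18 and 3.65 FPKM, so that replicate 3 alone lay far below the controls. This gave a log2 difference of -0.24 (SE 0.18, 95% interval -0.67 to 0.19; limma, adjusted p = 0.624), while set A gave -0.42 and set B gave 0.03. Without knockdown replicate 3 it was -0.10, and without control replicate 1 it was -0.14.

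**Figure D3:**
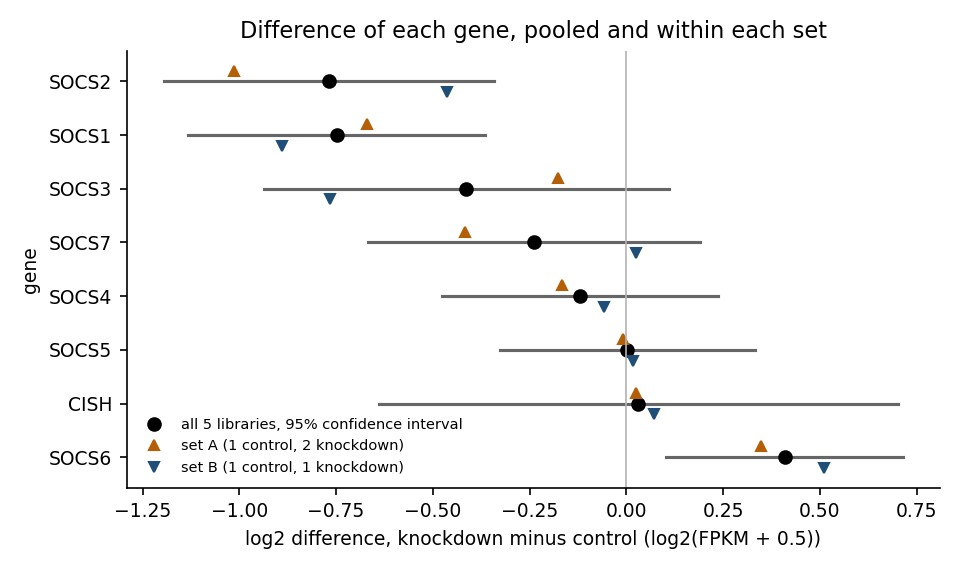
Log2 difference (knockdown minus control, log2(FPKM + 0.5)) of each gene with its 95% confidence interval from limma, and the same difference within set A and set B. The intervals of SOCS1, SOCS2 and SOCS6 leave out 0 before adjustment over all genes, and the 2 within-set values of SOCS7 and of SOCS5 have opposite signs.

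Within the knockdown group, several members differed in the direction that GC content gave over all genes. On the log2 scale, knockdown replicate 1 minus replicate 3 was 0.99 for CISH (56.7% GC), 0.54 for SOCS3 (60.0% GC) and 0.40 for SOCS7 (52.1% GC). It was -0.35 for SOCS4 (35.3% GC) and -0.27 for SOCS5 (37.5% GC). The medians of all tested genes in the same GC deciles were 0.23, 0.31, 0.14, -0.35 and -0.35. SOCS4 and SOCS5 thus lay near the median of their decile, and CISH lay well above its own. SOCS1 and SOCS6 differed little between these 2 libraries, at 0.06 (decile median 0.42) and -0.06 (decile median -0.35), and SOCS2 was at -0.34 (decile median -0.04). After correction for GC content and length the log2 differences between the groups were -0.67 for SOCS1, -0.78 for SOCS2, 0.40 for SOCS6 and -0.37 for SOCS3, with limma adjusted p of 0.196, 0.174, 0.203 and 0.337. For CISH the corrected difference was 0.10 (adjusted p = 0.822).

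**Figure D4:**
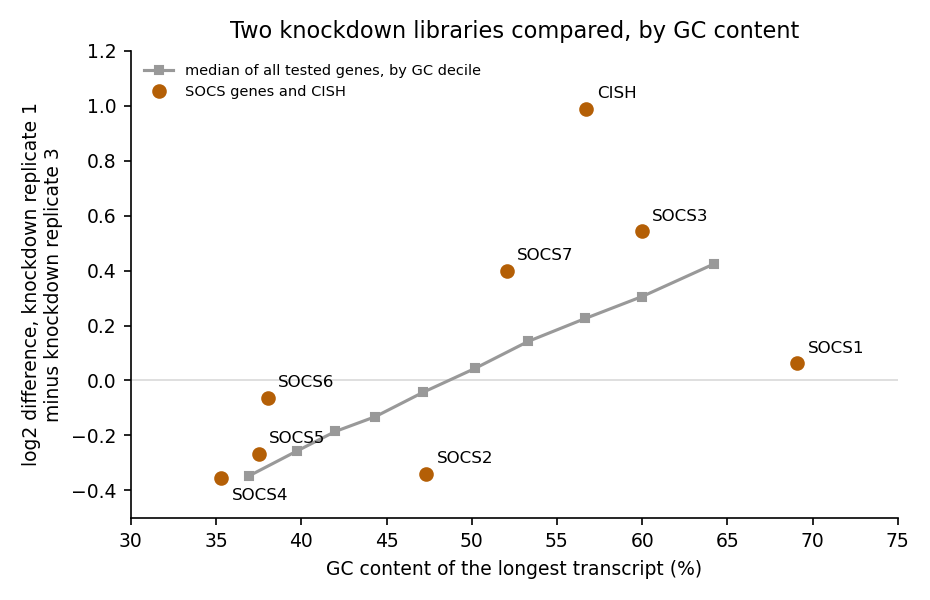
Log2 difference between knockdown replicates 1 and 3 against the GC content of the longest transcript, for the 8 genes (orange) and as the median of all tested genes in each GC decile (grey squares). The grey line climbs from -0.35 to 0.42, SOCS4 and SOCS5 lie near it, CISH lies above it and SOCS1 below it.

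The order of the levels by FPKM, which adjusts for length but not for GC content or shared reads, was different in the groups. In controls the mean levels ran SOCS2, SOCS4, SOCS7, SOCS5, SOCS6, SOCS3, CISH and SOCS1 from high to low. All neighbours were separated in range except SOCS7 and SOCS5, over 2 libraries. SOCS6 and SOCS3 were separated only narrowly, at 4.046 and 4.037 FPKM in control replicate 2. In knockdown the order was SOCS4, SOCS2, SOCS6, SOCS5, SOCS7, SOCS3, CISH and SOCS1. There the ranges of neighbours overlapped among the first 5 genes, and those of SOCS3 and CISH overlapped too. SOCS4 and SOCS6, which are not neighbours of SOCS7, lay wholly above it. SOCS1 was the lowest member in every library. SOCS2 made up 28.6% and 23.8% of the summed FPKM of the 8 genes in controls and 14.8%, 18.6% and 19.3% in knockdown. SOCS6 made up 10.2% and 10.7% in controls and 16.1%, 17.4% and 17.0% in knockdown. The sum itself was 41.0 and 37.8 FPKM in controls and 33.02, 34.3 and 32.7 FPKM in knockdown.

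Upstream of the family, the cytokines and receptors were described by gene lists, and no gene of any list passed over all genes in limma (adjusted p of at least 0.372). Of 10 ligands of the interleukin 6 family 5 were tested, with 4 lower and 1 higher (median -0.30). Among these IL11 and CLCF1 were lower (log2 differences -0.51 and -0.39) and CTF1 was higher (0.33). OSM, the ligand in the series title, was listed at 0 in 3 libraries and was at 0.176 FPKM in control replicate 2 and 0.151 FPKM in knockdown replicate 2. Of 25 receptor chains 20 were tested, with 13 lower and 7 higher (median -0.21). At an unadjusted p under 0.05 stood 3 lower and 0 higher, where 5.48% of all tested genes were lower and 6.22% higher. EPOR, the erythropoietin receptor and a docking site for CISH, differed by -0.65, IL4R, the interleukin 4 receptor, by -0.43 and IL2RG, the common gamma chain, by -0.96. For IL2RG set A gave -1.64 and set B -0.02, and without control replicate 1 it was -0.53.

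JAKs and STATs, the proteins that SOCS genes feed back on, also held no gene past the threshold. Of 3 tested JAKs (JAK3 was under the minimum level), JAK2 differed by -0.32, JAK1 by 0.18 and TYK2 by -0.12. The signs of JAK1 and TYK2 depended on single libraries: JAK1 was at -0.0036 without control replicate 2 and TYK2 at 0.03 without knockdown replicate 3. Of 5 tested STATs 4 were higher and 1 lower (median 0.12; 3 higher and 2 lower after rescaling to an equal sum), with STAT2 at 0.24 (0.09 without knockdown replicate 2) and STAT6 at -0.18 (-0.11 without knockdown replicate 3). STAT5A, which drives CISH and SOCS2 together with STAT5B, was at no more than 0.0694 FPKM in any library and was not tested. STAT5B was tested and stood at 9.59 and 7.81 FPKM in controls and at 9.36, 11.1 and 8.06 FPKM in knockdown. The STAT5B levels overlapped between the groups (log2 difference 0.12, limma adjusted p = 0.802).

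Other brakes on the pathway gave 7 lower and 4 higher of 11 tested (median -0.09). PTPN1, a phosphatase that acts on JAK2 and TYK2, was at 34.6 and 33.03 FPKM in controls and 26.9, 26.1 and 27.0 FPKM in knockdown, without overlap (log2 difference -0.34). PDLIM2, a nuclear ubiquitin ligase for STATs, differed by -0.47 (-0.31 without knockdown replicate 3). USP18, which shuts off the type I interferon receptor, differed by 0.56, while set A gave 0.16 and set B gave 1.15. Without knockdown replicate 2 it was 0.35 and without control replicate 2 it was 0.37. All 9 tested genes listed as parts or partners of the ligase that SOCS boxes recruit were higher (median 0.10), 0 of them at an unadjusted p under 0.05. After rescaling to an equal sum 6 were higher and 3 lower, and after GC content and length correction 7 were higher and 2 lower. Their 3 genes of smallest p were CUL5, the cullin of the complex, at 0.19, NEDD8, its activating modifier, at 0.42 and ELOB, elongin B, at 0.16, and all 3 overlapped between groups. NEDD8 reached 71.7 FPKM in knockdown replicate 3 against 27.4 to 39.7 FPKM in the other libraries, and without that library NEDD8 was at 0.07, ELOB at 0.07 and CUL5 at 0.12. Without control replicate 1 NEDD8 was at 0.17 and ELOB at 0.08. Of 16 tested members of the other SOCS box families 9 were lower and 7 higher (median -0.06), with ASB6 at -0.26, ASB9 at -0.20 and RAB40A at -0.19. ASB9 was at -0.09 without knockdown replicate 2 and at -0.11 without control replicate 2, and ASB6 at -0.18 without knockdown replicate 3.

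Downstream genes lay in both directions. Of 17 tested STAT3 and STAT5 targets 9 were lower and 8 higher (median -0.11), and 3 were lower and 2 higher at an unadjusted p under 0.05 (5.48% and 6.22% of all tested genes). CCND1, cyclin D1, was at -0.76, VEGFA, the vascular growth factor, at -0.33 and CEBPD, an acute-phase transcription factor, at 0.47. Of 8 tested interferon gamma targets 4 were lower and 4 higher (median 0.05), with 1 lower and 3 higher at an unadjusted p under 0.05. The guanylate-binding proteins GBP2 and GBP1 were at 0.63 and 0.55, while ICAM1, an adhesion molecule, was at -0.69 (set A -1.08, set B -0.17, and -0.45 without control replicate 1). IRF1, an interferon regulatory factor, was at 42.2 and 47.1 FPKM in controls and 44.6, 43.5 and 42.2 FPKM in knockdown. Among 9 tested receptor kinases and adaptors that SOCS proteins bind, 4 were lower and 5 higher (median 0.06). EGFR, a target of SOCS4 and SOCS5, was at 73.3 and 71.3 FPKM in controls and 59.7, 49.2 and 37.2 FPKM in knockdown (log2 difference -0.59, limma adjusted p = 0.394), while ERBB3 was at 0.41 and MET at -0.26 (set A -0.58, set B 0.15). MET was at -0.02 without control replicate 1 and at -0.50 without control replicate 2.

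**Figure D5:**
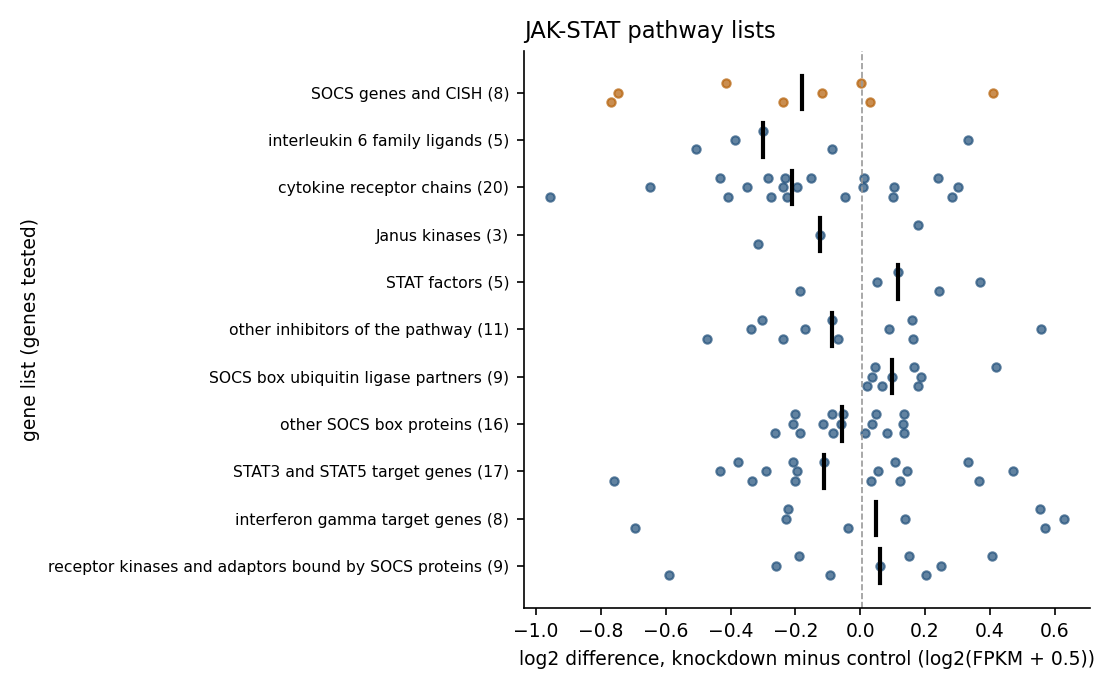
Log2 differences (knockdown minus control, log2(FPKM + 0.5)) of the tested genes of each list, 1 point per gene, with the list median as a black bar, the number of genes tested in brackets and the median of all tested genes as a dashed line. The SOCS genes and CISH (orange) run from -0.77 to 0.41 around a median of -0.18, and every list except the SOCS box ligase partners holds genes on both sides of 0.

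The tested genes whose patterns over the 5 libraries lay nearest to each member were found by the root mean square difference of log2(FPKM + 0.5) values, each gene's mean removed. For SOCS1 these were MICAL1 and SNORD167 (0.06 each), and 22 genes lay within 0.1. For SOCS2 they were GADD45A, a growth arrest and DNA damage gene, at 0.06 and GCH1, the first enzyme of tetrahydrobiopterin synthesis, at 0.08, with 3 genes within 0.1. GADD45A stood at 85.6 and 66.7 FPKM in controls and 40.3, 49.2 and 52.3 FPKM in knockdown. SOCS6 lay nearest to ARRDC1-AS1 (0.02) and TRIM52-AS1 (0.03), with 403 genes within 0.1. CISH lay nearest to MPP2 (0.04) and CEP131 (0.06), with 14 genes, and SOCS3 to TMEM134 (0.02) and GAS6-AS1 (0.03), with 145. SOCS7 lay nearest to ERCC2 and MIEF2 (0.02 each), with 578. Near SOCS4 lay SLPI (0.02), with 716 genes within 0.1, and near SOCS5 ITCH (0.01) and PTBP3 (0.02), with 1536. Nearness to SOCS3, SOCS4, SOCS5, SOCS6 or SOCS7 thus sets no gene apart. Fewer genes lay near SOCS1, SOCS2 and CISH, the members that varied most over the libraries. Their SDs on the log2 scale were 0.42, 0.46 and 0.35, against 0.09 for SOCS5. Nearness was not tested for any member.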

How the data were processed

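Total RNA of 5 HaCaT libraries (2 control, 3 knockdown, grouped by their titles) was read from 1 deposited table of FPKM values made by the authors. Per the submitters' processing notes HISAT2 2.0.1 and StringTie 2.0.6 were used, with builds GRCh38 and mm9 named without a role. The sources used here state neither annotation nor strand setting, and depth per library is unknown. Values were analysed as log2(FPKM + 0.5) for 12196 genes of mean FPKM at least 1 with limma 3.58.1 in R 4.3.3 (intensity trend, no covariate, two-sided, Benjamini-Hochberg over all genes, threshold 0.05). The fit was tested on simulated data. Sets A and B group libraries whose low genes (under 0.3 FPKM) share the most frequent ratio. Coordinates, overlaps, GC content and length came from GENCODE release 29 (GRCh38), which 96.5% of tested symbols matched for the lowess correction (span 0.3). The members and lists were chosen with earlier results of these data known. The text names AHNAK, the 8 members, the 3 genes of smallest p in each of 10 lists and the 2 nearest genes of each member, and other genes were chosen after their values were seen. Not every gene so chosen is reported here. Alternatives changed pseudocount, filter, scaling, variance model, library weights, covariates and libraries.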

Additional observations from a re-analysis of the deposited data

How the results depend on the processing

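SOCS1, SOCS2, SOCS3, SOCS4 and SOCS7 stayed lower and SOCS6 stayed higher in every alternative fitted. The other filters, the fit without a trend and robust empirical Bayes left each fitted log2 difference unchanged, so they could not change a sign. The replicate block gave the same log2 differences as leaving out knockdown replicate 3. SOCS1, SOCS2 and SOCS6 passed only with limma array weights (-0.84, -0.68 and 0.47, adjusted p = 0.0340, 0.0391 and 0.0377), where 11.7% of all genes passed. Those weights were 3.98 for knockdown replicate 2 and 0.257 for knockdown replicate 3. At a mean FPKM of at least 5, SOCS1, SOCS3, SOCS7 and CISH were not tested, and 2 of the 4 members left were lower. SOCS5 changed sign under equal-sum rescaling (-0.0476), quantile normalization (-0.0037), the replicate block (-0.0619) and GC content and length correction (-0.0161), and without control replicate 2 (-0.0036) or knockdown replicates 2 (-0.0015) or 3 (-0.0619), within a range of -0.0619 to 0.0712 over libraries left out. CISH did so under equal-sum rescaling (-0.011) and without knockdown replicates 1 (-0.199) or 2 (-0.0039), within -0.199 to 0.295. JAK1 did so without control replicate 2 (-0.0036, within -0.0036 to 0.363), and TYK2 with the replicate block or without knockdown replicate 3 (0.027 each, within -0.226 to 0.027). The cause was not tested. Genes past the threshold numbered 1 with a pseudocount of 1, without a trend, with robust empirical Bayes or at adjusted p under 0.1, 1428 with array weights, and 0 to 9 with each replicate left out, 9 of them without control replicate 1. Genes with an unadjusted p under 0.05 numbered 862 at a mean FPKM of at least 5 (8677 tested), 4285 with array weights, 828 with a term for the sets and 564 to 2092 with each replicate left out. Members lower numbered 5 to 7 with each replicate left out. A fit that leaves out a control assumes that the lone control varies like the knockdown libraries. Replicate numbers are shared between groups but no label ties them, and differences between replicates 1 and 2 correlated across genes at -0.403 between groups. With the replicate block SOCS1, SOCS2 and SOCS6 were at -0.76, -0.82 and 0.41, 977 genes had an unadjusted p under 0.05 and 0 passed.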
